A study of Mus musculus with 7 samples.

Results

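The genes described here encode noncollagenous glycoproteins of the extracellular matrix, the proteins that build elastic fibers and microfibrils, and the matricellular proteins that bind to them. They were 46 genes, chosen by name from 31131 named genes on a mouse expression array, and a gene was taken when the scanner files, or the current symbol of the probe's accession, gave its name. All 46 had at least 1 probe, and 44 of them were bright enough to be tested among 16577 genes. The samples were quadriceps muscles of C57BL/6 mice (the J substrain in the study's methods), 4 labelled WT and 3 labelled AR113Q, with 1 single-dye (Cy3) Agilent array for the total RNA of each mouse. AR113Q mice carry a humanized knock-in allele with an expanded CAG repeat, which encodes a polyglutamine tract, and model spinobulbar muscular atrophy (SBMA). For the controls the sources differ. The labels and legends call them WT, whereas the study's text describes a line of knock-in mice that carry a humanized allele with a short repeat, so whether they carry the humanized allele too is not settled. The mice were 3 months old by the sample labels and 90 days old by the design text, and the study used males. The labels name no treatment, but the design text adds the letters NCD to the AR113Q name, without saying what they stand for. The arrays asked which transcripts differ in knock-in muscle before the onset of motor dysfunction.

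Muscle fibers are wrapped in a basement membrane, in which perlecan and the nidogens tie the laminin and collagen IV networks together, and lie within an interstitial matrix that fibroblasts and other stromal cells produce. Fibrillin microfibrils form the scaffold on which fibulins and microfibril-associated proteins help to deposit elastin, and they hold latent transforming growth factor beta (TGF-beta) through its binding proteins. Matricellular proteins such as thrombospondins, SPARC and periostin contribute little to structure and act on how cells meet the matrix.

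Signals are given on a log2 scale after quantile normalization, and a log2 fold change is the AR113Q mean minus the WT mean. A probe was used when at least 3 of 7 arrays showed it well above background, a call of the extraction software, and the brightest such probe stood for its gene. Differences were tested with limma over all 16577 genes, with Benjamini-Hochberg adjusted p-values. A gene passed the test when its adjusted p was 0.05 or lower, and it was called a differentially expressed gene (DEG) when the log2 fold change was also 1 or more in either direction. On each array 47.6% to 55.8% of probes were well above background, and saturation touched 0 spots. Precision is limited by how many arrays there were. Across genes the log2 signals of 2 arrays correlated at 0.984 to 0.988 within WT, at 0.970 to 0.982 within AR113Q and at 0.911 to 0.944 between the genotypes, a description in which genes are not independent replicates. Only slide 2 of the 5 slides held both genotypes. The tissue label held, since 10 of 10 myofiber genes, among them Acta1, Ckm and Myh4, had WT means between 13.13 and 17.68, and only Ckm among them passed the test, with a log2 fold change of -0.80 that was under the fold threshold.

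Most of the matrix glycoprotein genes were lower in AR113Q than in WT quadriceps. Of the 44 tested, 25 were downregulated DEGs and 1, Thbs1, was an upregulated DEG, whereas 13.1% of all tested genes were downregulated and 11.2% upregulated DEGs. The test was passed by 33 of the 44 (43.6% of all genes). They were 31 that were lower (22.6% of all genes) and 2 that were higher (21.0% of all genes), Thbs1 and Tinagl1. The values of the genotypes were apart for 31 genes that were lower in AR113Q (25.1% of all genes) and for 3 that were higher (24.2% of all genes), Thbs1, Thbs2 and Tinagl1. The median log2 fold change was -1.27, beside -0.01 over all genes. In bulk tissue fewer cells of a type and less RNA per cell cannot be told apart, and this holds for every difference below.

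Part of this count rests on dim probes. For 7 of the 44, namely Efemp1, Emilin1, Postn, Tinag, Vcan, Chad and Ecm2, all WT arrays but fewer than 3 AR113Q arrays showed the probe well above background, so that these genes could enter the test only through WT. Over the 37 genes measured well above background on all 7 arrays, 20 were downregulated DEGs and 1 was an upregulated DEG, and the median log2 fold change was -1.11. Of all 13716 tested genes with such signals, 1567 were downregulated and 1373 upregulated DEGs, and their median was -0.01. Among these 37 the decreases called DEGs reached 5.04-fold for Fbn1, and the smallest was the 2.03-fold decrease of Ltbp2. Fbn2 and Tnc were the 2 genes that could not be tested. Fbn2, a fibrillin prominent in development, had 2 probes, well above background on 2 arrays and on 0 arrays. Tnc, which encodes tenascin-C, had 1 probe that was well above background on 0 WT arrays and on 2 of 3 AR113Q arrays, and another on 0 arrays.

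**Figure D1:**
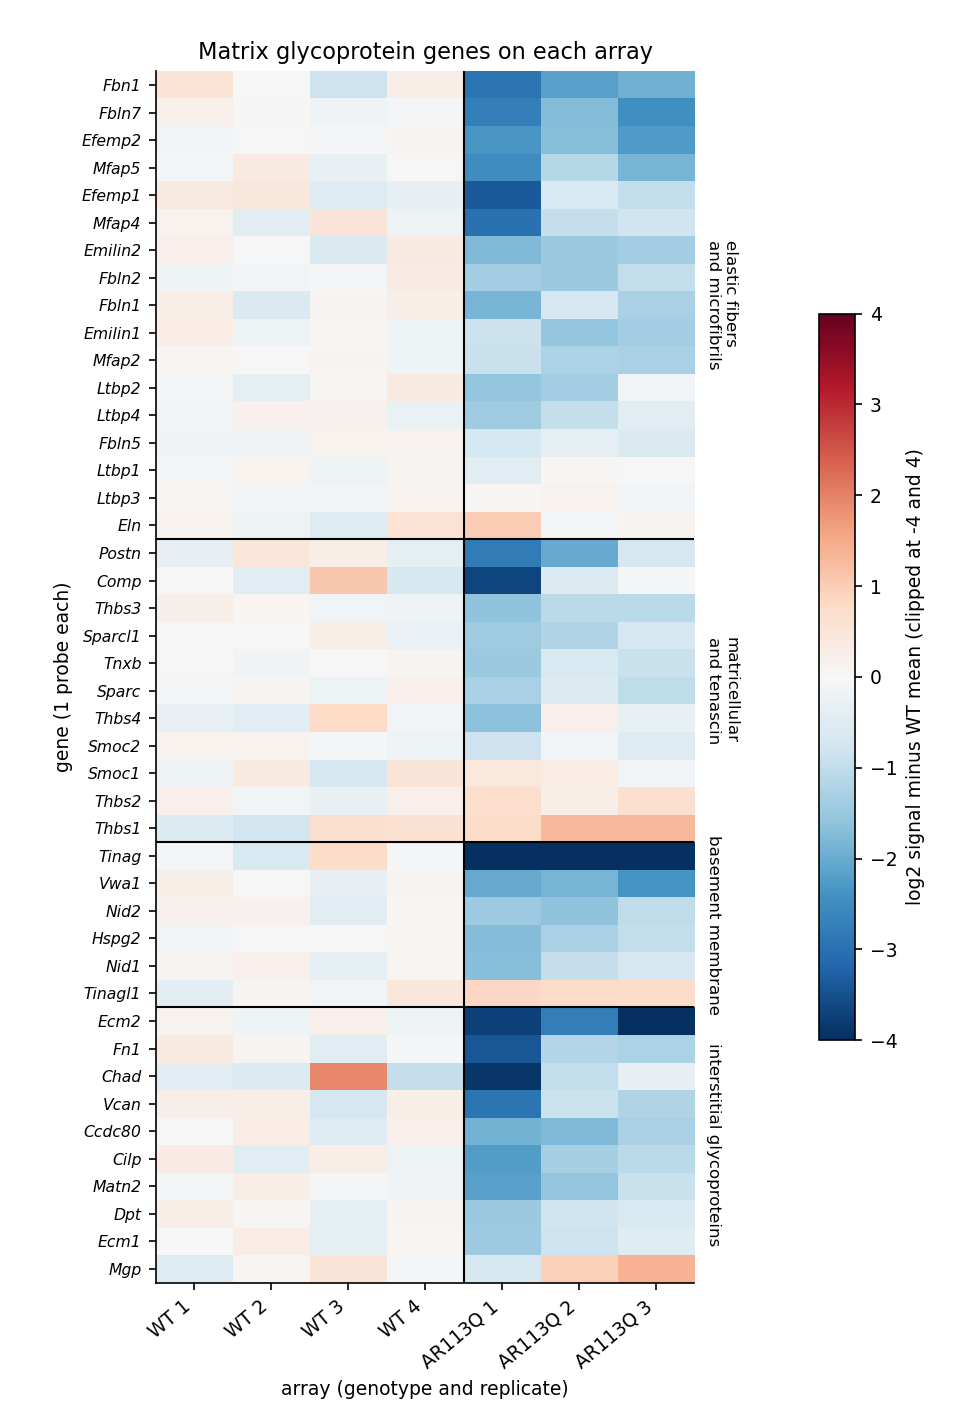
Each cell is the log2 signal of a gene (rows, grouped by role and ordered by log2 fold change) on an array (columns, 4 WT and 3 AR113Q), minus the gene's WT mean, with blue below and red above it and the color scale clipped at -4 and 4. The AR113Q columns are blue for most of the 44 genes, AR113Q 1 is the lowest of the 3 AR113Q arrays for 32 genes, and Thbs1, Thbs2 and Tinagl1 are red on all 3.

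The AR113Q arrays differed among themselves. Taken over the 44 genes, the median distance from the WT mean was -1.63 on AR113Q 1, -0.97 on AR113Q 2 and -0.89 on AR113Q 3 on the log2 scale, and it lay between -0.05 and 0.08 on the 4 WT arrays. AR113Q 1 was the lowest of the 3 AR113Q arrays for 32 of the 44 genes. All 3 AR113Q medians lay below the WT range. Without AR113Q 1 the limma fit called 20 downregulated DEGs and 1 upregulated DEG, which was Mgp and not Thbs1, among the 44, and the median log2 fold change was -0.91. Over all genes that fit called 11.6% downregulated and 8.46% upregulated DEGs. On slide 2, which held AR113Q 1 and WT 2, the median difference between the 2 arrays was -1.66, a value without a test. A limma fit that holds slide as a fixed effect has 1 residual degree of freedom and takes its contrast from that pair alone, so that its calls say nothing about stability. In that fit 0 of the 44 genes, and 0 of all genes, passed the test (lowest adjusted p among the 44, 0.0523), while 33 of the 44 and 6200 of all genes had an unadjusted p of 0.05 or lower, and the median log2 fold change was -1.66. In the authors' normalized values, which held 43 of the genes, 14 were downregulated DEGs and 31 passed the test. Over all genes 4.98% were downregulated DEGs in those values.

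The promoters of genes at both ends of the range are shown so that the window upstream of each can be read beside its values. A RefSeq promoter table on GRCm38.p6, which runs from 250 bases before to 50 bases after each start site, held 31 of the 46 genes. Shown are Tinag, Ecm2 and Fbn1, which had the largest fitted decreases with the settings used here but not after normexp background correction, where Fbln7 (-2.07) and Efemp2 (-1.76) fell further, and Tinagl1, which was higher, and Thbs1 was not among the 31. Tinag is at chr9:77045732-77046031 (minus strand), Ecm2 at chr13:49504560-49504859 (plus strand), Fbn1 at chr2:125506389-125506688 (minus strand) and Tinagl1, for which 1 of 2 windows is shown, at chr4:130175073-130175372 (minus strand). Each is written 5′ to 3′ on the strand of its gene, and capitals mark every match to a searched motif.
Tinag: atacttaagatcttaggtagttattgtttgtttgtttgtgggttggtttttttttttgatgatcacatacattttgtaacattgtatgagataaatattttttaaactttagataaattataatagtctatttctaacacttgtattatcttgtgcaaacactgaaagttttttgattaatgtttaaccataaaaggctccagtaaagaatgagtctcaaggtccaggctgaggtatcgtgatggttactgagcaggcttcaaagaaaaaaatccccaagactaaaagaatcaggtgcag
Ecm2: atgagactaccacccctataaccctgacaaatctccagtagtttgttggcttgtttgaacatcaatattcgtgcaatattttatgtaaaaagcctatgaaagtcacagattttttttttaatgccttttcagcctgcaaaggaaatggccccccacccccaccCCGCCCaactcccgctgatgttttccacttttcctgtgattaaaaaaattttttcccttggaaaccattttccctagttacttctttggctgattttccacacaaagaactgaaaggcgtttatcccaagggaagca
Fbn1: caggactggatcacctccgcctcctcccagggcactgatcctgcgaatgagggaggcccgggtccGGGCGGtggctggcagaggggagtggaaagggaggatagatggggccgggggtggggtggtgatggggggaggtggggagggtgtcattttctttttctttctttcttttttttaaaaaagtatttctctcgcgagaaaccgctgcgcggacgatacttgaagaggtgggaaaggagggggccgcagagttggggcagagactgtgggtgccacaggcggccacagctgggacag
Tinagl1: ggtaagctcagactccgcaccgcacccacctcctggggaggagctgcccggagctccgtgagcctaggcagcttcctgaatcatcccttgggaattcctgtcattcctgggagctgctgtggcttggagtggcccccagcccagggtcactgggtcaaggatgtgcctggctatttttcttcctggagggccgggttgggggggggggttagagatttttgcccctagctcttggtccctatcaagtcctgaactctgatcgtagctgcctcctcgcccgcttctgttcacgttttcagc
The motifs, searched on both strands, were the AP-1 motif TGACTCA, the TATA motif TATAAA and the GC box GGGCGG. In these 4 windows only the GC box was matched, in Ecm2 at position -87 from the start site on the opposite strand and in Fbn1 at position -185 on the same strand. Over all 43 windows of the 31 genes, TGACTCA was matched in 3, TATAAA in 7 and GGGCGG in 25. Among all 32851 windows of the table the shares with a match were 5.2%, 13.6% and 35.7%, in the same order. G and C made up 31.0% of the Tinag window, 41.0% of Ecm2, 60.3% of Fbn1 and 60.0% of Tinagl1, beside a median of 52.7% over all windows. A match is a run of letters and no evidence of binding.

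Most elastic fiber and microfibril genes were lower. Of the 17 tested, 11 were downregulated DEGs (13.1% over all genes), 13 passed the test and were lower, Eln, Ltbp1, Ltbp3 and Efemp1 did not pass, and the median log2 fold change was -1.27. Over the 15 well above background on all 7 arrays, 10 were downregulated DEGs and the median was the same. Fbn1, which encodes fibrillin-1, the main protein of microfibrils in adult tissue, was lower on every AR113Q array. Its log2 signal was 10.12, 9.58, 8.75 and 9.84 on WT arrays 1 to 4 and 6.66, 7.41 and 7.65 on AR113Q arrays 1 to 3. The highest AR113Q array stayed below the lowest WT array. The difference was -2.33 (limma standard error, SE, 0.36 and adjusted p = 0.00163 from limma), a 5.04-fold decrease, measured by a probe on chromosome 2 of mm9 from 125126727 to 125126786.

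Fibulins are glycoproteins that link elastin, fibrillin and basement membranes, and the 6 fibulin genes measured here had a negative log2 fold change. Fbln7 read 9.37, 9.20, 8.98 and 9.12 on the WT arrays and 6.44, 7.43 and 6.72 on the AR113Q arrays, with no overlap. The change was -2.30 (SE 0.24, adjusted p = 0.000389), and another kept probe gave -3.29. Efemp2, or fibulin-4, is required for elastic fiber assembly and helps to bring lysyl oxidase to elastin. It varied little among WT mice, at 10.38, 10.49, 10.44 and 10.60, and lay at 8.15, 8.77 and 8.20 in AR113Q mice. The difference of -2.10 (SE 0.19, adjusted p = 0.000204) was a 4.30-fold decrease. Fbln2 at -1.29 (adjusted p = 0.00147) and Fbln1 at -1.27 (adjusted p = 0.0136) were also DEGs. Fbln1 fell short of the fold threshold without AR113Q 1 (-0.97), after normexp background correction (-0.67) and in the authors' normalized values (-0.47), with an adjusted p of 0.00678 to 0.0716 over all settings. Fbln5, another fibulin required for elastic fiber formation, was lower by less, with -0.56 (adjusted p = 0.0222), and it missed the threshold without WT 3, WT 4 or AR113Q 1 (-0.52, -0.51 and -0.48), with an adjusted p between 0.0105 and 0.203 over all settings tried. Efemp1, or fibulin-3, had -1.64 (adjusted p = 0.0621 from limma) and did not pass. AR113Q 1 read 2.48 and the other two AR113Q arrays 5.22 and 4.85. The difference was -0.77 without AR113Q 1 and passed, at -2.19 (adjusted p = 0.0332), without AR113Q 2, with an adjusted p of 0.0332 to 0.150 over all settings.

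Microfibril-associated proteins bind fibrillin along the microfibril, and all 3 measured here were downregulated DEGs. Mfap5 read 11.66, 12.11, 11.45 and 11.75 on the WT arrays and 9.27, 10.61 and 9.90 on the AR113Q arrays. The groups did not overlap and the log2 fold change was -1.82 (SE 0.31, adjusted p = 0.00257). For Mfap2 the values were 8.65, 8.55, 8.66 and 8.38 in WT and 7.66, 7.28 and 7.28 in AR113Q mice. They too were apart, with a log2 fold change of -1.15 (SE 0.16, adjusted p = 0.00117), but another, dimmer Mfap2 probe gave -0.81, under the fold threshold. Mfap4 had -1.58 (adjusted p = 0.0388). AR113Q 1 read 6.37 and the other two AR113Q arrays 8.41 and 8.57, and without AR113Q 1 its difference was -0.86 (adjusted p = 0.0471). It also missed the threshold without WT 1, WT 3 or WT 4, with differences of -1.54, -1.42 and -1.66, and its adjusted p ranged from 0.0179 to 0.0992 over all settings tried.

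The emilins, elastin-microfibril interface proteins, were both downregulated DEGs, Emilin2 with -1.55 (adjusted p = 0.00166) and Emilin1 with -1.27 (adjusted p = 0.00239). Emilin1 was dim, with 1 of 3 AR113Q arrays well above background, and after normexp background correction its difference was -0.27 (adjusted p = 0.0515, with a range of 0.000538 to 0.182 over all settings). The latent TGF-beta binding proteins, which anchor the growth factor to microfibrils, did not move together. Ltbp4 read 13.14, 13.42, 13.42 and 12.98 on the WT arrays and 11.83, 12.28 and 12.82 on the AR113Q arrays. Every AR113Q array was below every WT array. The difference was -0.93 (SE 0.25, adjusted p = 0.0178), under the fold threshold, while a dimmer kept probe gave -1.15 and passed it. Ltbp2 was a DEG at -1.02 (adjusted p = 0.0469), with overlap, as AR113Q 3 read 6.74 and WT 2 read 6.49. The Ltbp2 call was lost without any of WT 1 to 4, AR113Q 1 or AR113Q 2, with differences between -1.15 and -0.74, and its adjusted p ranged from 0.0021 to 0.157 over all settings. Ltbp1 had -0.12 (adjusted p = 0.618) and Ltbp3 had 0.02 (adjusted p = 0.911), and neither passed. Eln, the gene of elastin itself, had a log2 fold change of 0.35 (adjusted p = 0.433), with the highest value, 7.66, on AR113Q 1. Without that array it was 0.013, and within slide 2 it was 1.21.

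**Figure D2:**
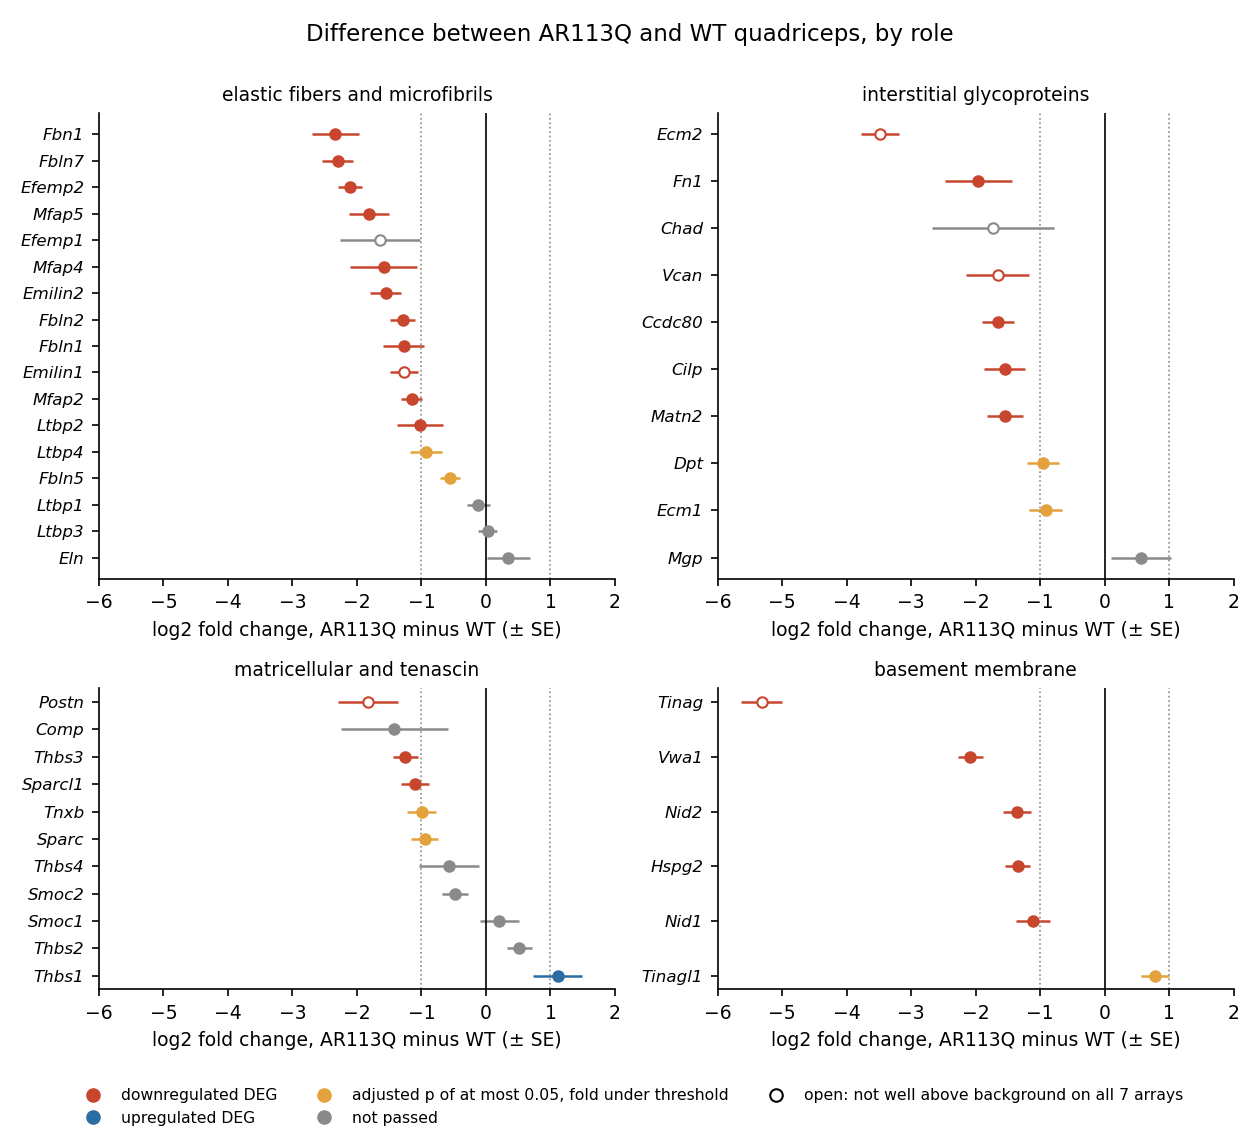
Points are log2 fold changes (x axis, AR113Q minus WT, with the limma standard error as bars) of the 44 tested genes, in a panel for each role, with dotted lines at the fold threshold of 1 and open symbols for the 7 genes not well above background on all 7 arrays. Elastic fiber, basement membrane and interstitial genes lie mostly to the left of -1, whereas the matricellular panel runs from Postn at -1.83 to Thbs1 at 1.11.

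Matricellular and tenascin genes included both lower and higher ones. Of 11 tested, 3 were downregulated and 1 was an upregulated DEG (13.1% and 11.2% over all genes), 5 that passed the test were lower and 1 was higher (22.6% and 21.0% over all genes), and the median log2 fold change was -0.95. Over the 10 genes well above background on all 7 arrays, which leaves out Postn, 2 were downregulated DEGs and 1 was an upregulated DEG, with a median of -0.76. Thrombospondins bind cell surface receptors and growth factors, and thrombospondin-1 can release TGF-beta from its latent form. Thbs1 read 7.11, 6.93, 8.31 and 8.28 on the WT arrays and 8.41, 8.94 and 8.96 on the AR113Q arrays. WT 3 and WT 4 lay close to AR113Q 1, but the groups did not overlap. The log2 fold change was 1.11 (SE 0.38, adjusted p = 0.0467), measured on chromosome 2 of mm9 from 117952585 to 117952644. The call was lost without WT 1 or WT 2 (differences of 0.94 and 0.88) and without AR113Q 1, 2 or 3 (1.27, 1.02 and 1.01). Over all settings the adjusted p lay between 0.0254 and 0.121 and the difference stayed above 0.

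Thbs3, which encodes a pentameric thrombospondin, went the other way. Its values were 9.40, 9.25, 9.04 and 8.99 in WT and 7.55, 8.10 and 8.10 in AR113Q mice, without overlap. The log2 fold change was -1.25 (SE 0.20, adjusted p = 0.00173), and another probe that overlaps the same stretch gave -1.26. Thbs2, the close relative of Thbs1, had 0.52 (adjusted p = 0.0657) without overlap and did not pass, though it did without AR113Q 2 (0.66). Comp and Thbs4 are thrombospondins of cartilage and tendon. Comp read 10.15, 9.71, 11.20 and 9.49 on the WT arrays and 6.47, 9.58 and 10.10 on the AR113Q arrays. AR113Q 1 was far below the rest and the other two lay within the WT range. The difference of -1.42 (SE 0.83, adjusted p = 0.200) did not pass, and without AR113Q 1 it was -0.30. For Thbs4, too, AR113Q 1 was the lowest array at 10.89 and WT 3 the highest at 13.34, and its log2 fold change was -0.58 (adjusted p = 0.344). Without AR113Q 1 it was -0.04.

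**Figure D3:**
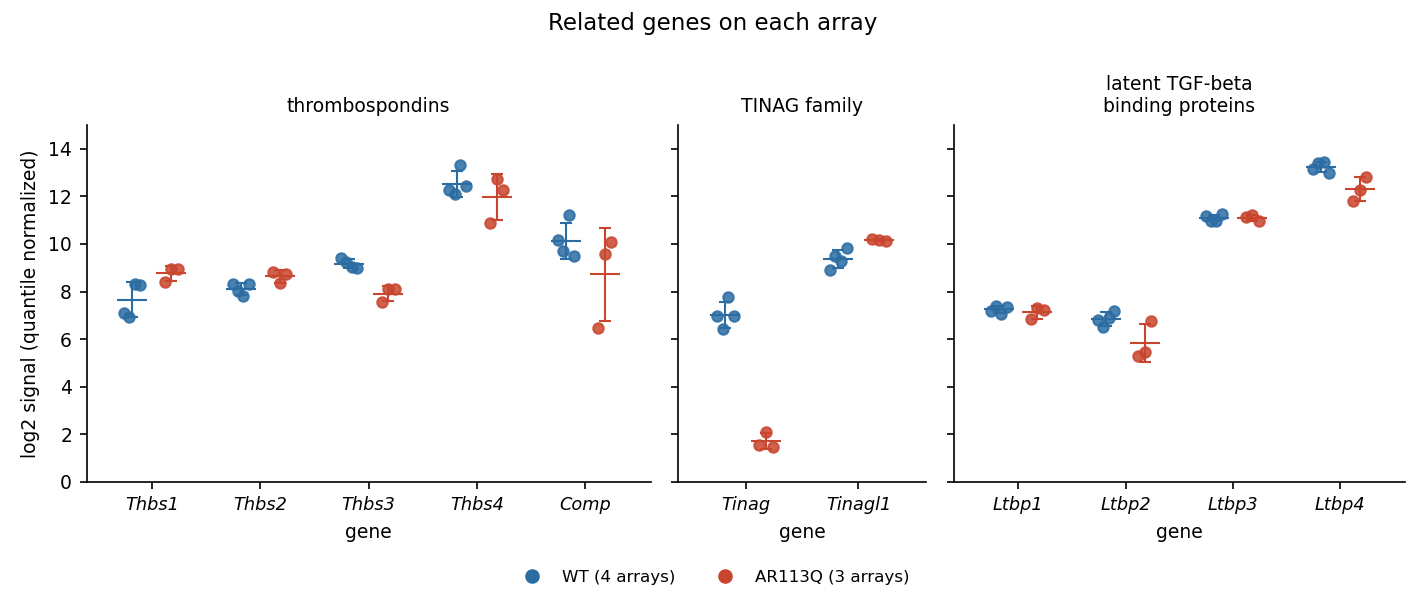
Points are the log2 signals (y axis) of related genes (x axis) on the 4 WT (blue) and 3 AR113Q (red) arrays, with the mean and SD of each genotype, and genes are not comparable with each other in level because each has its own probe. Thbs1 is higher and Thbs3 lower on all 3 AR113Q arrays, Tinag falls to 1.48 to 2.09 while Tinagl1 rises to 10.11 to 10.19, and Ltbp1 and Ltbp3 overlap between the genotypes.

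SPARC family proteins bind collagen and calcium and modulate matrix assembly. Sparcl1, or hevin, read 13.91, 13.91, 14.15 and 13.62 on the WT arrays and 12.49, 12.68 and 13.21 on the AR113Q arrays. The groups were apart, with a log2 fold change of -1.10 (SE 0.22, adjusted p = 0.00460). Without AR113Q 1 it was -0.96, under the fold threshold. Sparc itself was lower by less, at -0.95 (SE 0.21, adjusted p = 0.00807), and was under the fold threshold. Smoc2 had -0.48 (adjusted p = 0.0920) and Smoc1 had 0.21 (adjusted p = 0.609), and these genes of modular calcium-binding proteins did not pass, although Smoc2 did without AR113Q 2 (-0.68). Postn, the gene of periostin, had -1.83 (adjusted p = 0.0143) with 1 of 3 AR113Q arrays well above background, and after normexp background correction it had -0.29 (adjusted p = 0.0910, with a range of 0.00158 to 0.164 over all settings). Tnxb, which encodes the tenascin that organizes collagen fibrils, had -0.999 (adjusted p = 0.00760) and missed the fold threshold by less than its standard error of 0.22. On the Tnc probe that was well above background on 2 AR113Q arrays, the values were 3.92, 2.38, 1.72 and 1.98 in WT and 5.67, 3.57 and 3.07 in AR113Q mice. They overlapped, and no test was made.

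Perlecan and the nidogens were lower together with most basement membrane genes. All 6 genes of this group passed the test (43.6% of all genes), 5 of them as downregulated DEGs (13.1% over all genes). Tinagl1 was the gene that was higher, and the median log2 fold change was -1.35. Tinag entered the test only through WT, and over the other 5 genes 4 were downregulated DEGs and the median was again -1.35. Tinag, which encodes tubulointerstitial nephritis antigen, a protein known from kidney basement membranes, read 6.97, 6.41, 7.76 and 6.96 on the WT arrays and 1.54, 2.09 and 1.48 on the AR113Q arrays. It was well above background on all WT arrays and on 0 AR113Q arrays. With the lowest signal of any probe well above background on each of those arrays as the floor, it was at least 10.6-fold lower in AR113Q muscle (adjusted p = 5.54e-05 from limma). This bound holds only for that floor and this processing. The fitted difference of -5.32 exceeds it because that difference, like the p, uses signals below the floor. After normexp background correction the Tinag difference was -1.40, and in the authors' normalized values it was -0.85, under the fold threshold. It was measured on chromosome 9 of mm9, from 76799672 to 76799731. Tinagl1, its paralog, which is secreted into vascular and other basement membranes, averaged 9.37 ± 0.38 (SD, n = 4) on WT arrays and 10.15 ± 0.04 (SD, n = 3) on AR113Q arrays. The log2 fold change was 0.78 (SE 0.22, adjusted p = 0.0214) and its other probe gave 0.88, so that both probes were higher without reaching the fold threshold. The adjusted p rose to between 0.0510 and 0.0551 without WT 3, AR113Q 1 or AR113Q 2, and over all settings it lay between 0.00628 and 0.272.

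Vwa1, which encodes the perlecan-binding protein WARP, read 10.03, 9.78, 9.49 and 9.91 on the WT arrays and 7.80, 7.96 and 7.41 on the AR113Q arrays. The gap between the groups was wider than the spread within either, and the log2 fold change was -2.08 (SE 0.20, adjusted p = 0.000258). Hspg2, the gene of perlecan, the main heparan sulfate proteoglycan of the basement membrane, was very even among WT mice, with 12.34, 12.46, 12.44 and 12.51. On the AR113Q arrays it read 10.70, 11.13 and 11.44. The difference was -1.35 (SE 0.19, adjusted p = 0.00120), although a dimmer Hspg2 probe gave -0.66, under the fold threshold. The nidogens bridge laminin and collagen IV. Nid2 read 8.79, 8.79, 8.21 and 8.69 in WT and 7.17, 7.02 and 7.62 in AR113Q mice, a difference of -1.35 (SE 0.22, adjusted p = 0.00192) without overlap. For Nid1 the brightest of 3 kept probes read 11.37, 11.45, 10.89 and 11.35 in WT and 9.57, 10.30 and 10.59 in AR113Q mice. It was lower by 2.16-fold, at -1.11 (SE 0.26, adjusted p = 0.0108), and by less than the fold threshold without AR113Q 1 (-0.82) and as the mean over its probes (-0.59). The other two Nid1 probes gave -0.79 and 0.13, and the last of these is annotated at 12794798 on chromosome 13 of mm9, apart from the others at 13604435 and 13602780.

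Interstitial glycoproteins had the lowest median of the 4 groups, -1.60 on the log2 scale, and 6 of 10 were downregulated DEGs (8 passed the test and were lower). Vcan, Chad and Ecm2 of this group entered the test only through WT, and over the other 7 genes 4 were downregulated DEGs and the median was -1.55. Fn1, which encodes fibronectin, read 12.92, 12.66, 12.13 and 12.50 on the WT arrays and 9.12, 11.39 and 11.28 on the AR113Q arrays. All 3 AR113Q arrays were below WT, AR113Q 1 by the most. The log2 fold change was -1.96 (SE 0.52, adjusted p = 0.0178), and without AR113Q 1 it was -1.23 (adjusted p = 0.00808). The Fn1 call was lost without a filter on dim probes and with a replicate block (adjusted p = 0.0524 and 0.0509), and over all settings the adjusted p lay between 0.00808 and 0.0524. Ccdc80, a secreted protein of fibroblasts and adipocytes, read 10.89, 11.19, 10.36 and 11.10 in WT and 8.98, 9.12 and 9.60 in AR113Q mice. It was lower in all 3 AR113Q mice, by -1.65 (SE 0.25, adjusted p = 0.00145). Cilp, the cartilage intermediate layer protein, had 10.53, 9.78, 10.46 and 10.00 in WT and 7.94, 8.86 and 9.12 in AR113Q mice. The difference was -1.55 (SE 0.32, adjusted p = 0.00551) without overlap. Matn2, a matrilin of filamentous networks, read 8.42, 8.74, 8.41 and 8.34 on the WT arrays and 6.31, 6.90 and 7.58 on the AR113Q arrays, a difference of -1.55 (SE 0.29, adjusted p = 0.00357), again without overlap. In the authors' normalized values the Matn2 difference was -0.87, under the fold threshold.

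Ecm2, a glycoprotein with leucine-rich repeats, averaged 7.95 ± 0.21 (SD, n = 4) on WT arrays and 4.47 ± 0.64 (SD, n = 3) on AR113Q arrays, a log2 fold change of -3.48 (SE 0.29, adjusted p = 0.000174), and was well above background on 2 of 3 AR113Q arrays. The Ecm2 difference was -1.43 after normexp background correction and -0.96 in the normalized values of the authors. For Vcan, the gene of versican, a large chondroitin sulfate proteoglycan, the probes disagreed. The brighter probe read 7.26, 7.28, 6.35 and 7.26 in WT and 4.12, 6.20 and 5.82 in AR113Q mice. The groups did not overlap and the difference was -1.66 (SE 0.49, adjusted p = 0.0252). The call was lost without WT 1, WT 2 or WT 4 (-1.60, -1.59 and -1.59), and without AR113Q 1 the difference was -1.01 (adjusted p = 0.0387). Over all settings the adjusted p lay between 0.0141 and 0.272. The other kept Vcan probe gave -0.37 (adjusted p = 0.300). Dpt, or dermatopontin, at -0.96 (adjusted p = 0.0166) and Ecm1 at -0.92 (adjusted p = 0.0216) were lower by less than the fold threshold. Ecm1 missed the adjusted p threshold without WT 2 (-0.82) or AR113Q 1 (-0.66), with an adjusted p of 0.0100 to 0.0710 over all settings. Chad, which encodes chondroadherin of cartilage and tendon, had -1.74 (adjusted p = 0.173) with AR113Q 1 at 3.87 and WT 3 at 9.70, and did not pass. It was -0.65 without AR113Q 1 and -1.09 without WT 3. Mgp, matrix Gla protein, an inhibitor of calcification, had 0.56 (adjusted p = 0.354). Mgp differed in direction between the AR113Q arrays, with 12.03 on AR113Q 1 and 13.60 and 14.04 on the other two, and without AR113Q 1 the difference was 1.17 (adjusted p = 0.0220, with a range of 0.0220 to 0.798 over all settings).

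Genes that act on the same matrix were read on the same arrays. Among 12 genes of elastic fiber cross-linking and turnover, 11 were tested, 4 were downregulated and 2 upregulated DEGs (13.1% and 11.2% over all genes), and the median log2 fold change was -0.82. Over the 8 well above background on all 7 arrays, 3 were downregulated and 2 upregulated DEGs, with a median of -0.14. The test was passed by 6 of the 11 (54.5%), beside the 43.6% of all genes, and with so few genes this count is no result about the list. The lysyl oxidases, which cross-link elastin and collagen, went in both directions. Lox read 6.18, 5.89, 5.57 and 6.90 on the WT arrays and 8.60, 9.35 and 9.37 on the AR113Q arrays, far above WT, with a log2 fold change of 2.97 (SE 0.34, adjusted p = 0.000493). Loxl3 had -1.72 and Loxl2 had -1.68, both downregulated DEGs, Loxl3 from a probe well above background on 2 of 3 AR113Q arrays.

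Of 18 receptors for these glycoproteins 17 were tested, with 5 downregulated and 1 upregulated DEGs (13.1% and 11.2% over all genes) and a median of -0.15. Over the 14 well above background on all 7 arrays, 3 were downregulated and 0 upregulated DEGs, with a median of -0.04. Of the 17, the test was passed by 47.1%, near the 43.6% of all genes, which is no result about these receptors. The 3 with the largest absolute log2 fold changes were Itgb6 at -3.85, the beta chain of an integrin that binds fibronectin and activates latent TGF-beta, the hyaluronan receptor Cd44 at -2.35 and the syndecan Sdc4 at 1.92. Itgb6 and Cd44 were well above background on 2 of 3 AR113Q arrays, and Sdc4 on 3 of 4 WT arrays. The chains of the classical fibronectin receptor had 0.14 (Itgb1, adjusted p = 0.494) and 0.81 (Itga5, adjusted p = 0.0449), and Itga5 missed the threshold without any array but WT 4 or AR113Q 3.

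In the TGF-beta list of ligands, receptors, Smads and target genes, 17 of 19 genes were tested, 4 were downregulated and 1 was an upregulated DEG, and the median was 0.51 (3 and 1 over the 15 on all 7 arrays, with the same median). Of the 17, the test was passed by 47.1%, 4 lower and 4 higher, near the 43.6% of all genes, so that the count is no result about this list. The higher ones were Tgfbr1 at 1.11, Tgfbr3 at 0.80, Cyr61 at 0.82 and Smad4 at 0.69. Tgfbr1 was no DEG without WT 1 (0.84) or AR113Q 2 (0.94), and Cyr61 missed the threshold without WT 1, WT 2, AR113Q 1 or AR113Q 3 (0.62, 0.83, 0.69 and 0.84). Wisp1 (Ccn4) was well above background on 0 AR113Q arrays and at least 2.83-fold lower there, a bound that holds only for the floor described for Tinag. It entered the test only through WT, and its adjusted p of 0.000629 uses AR113Q signals below that bound. Wisp2 (Ccn5) had -2.06 and Smad3, which carries the TGF-beta signal into the nucleus, had -1.44, both downregulated DEGs. Smad3 was -0.77 without AR113Q 1, under the fold threshold, and missed the adjusted p threshold without any WT array or without AR113Q 2 (differences from -1.66 to -1.38). The ligand Tgfb2 was lower, at -1.27, whereas Tgfb1 at -0.10 (adjusted p = 0.749) and Tgfb3 at 0.20 (adjusted p = 0.315) did not pass.

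**Figure D4:**
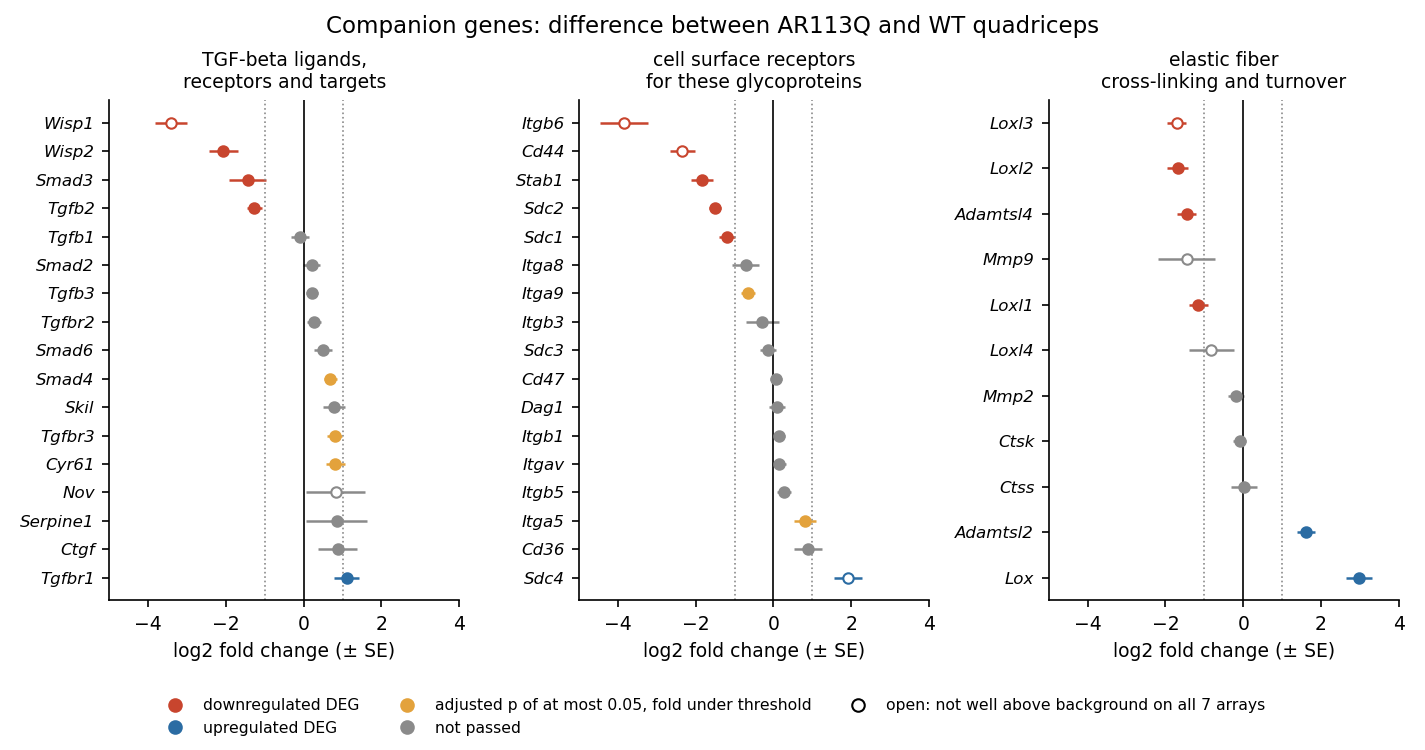
Points are log2 fold changes (x axis, with the limma standard error as bars) of the tested genes of 3 companion lists, colored as downregulated DEG, upregulated DEG, past the adjusted p alone, or not passed. Lox at 2.97 stands opposite Loxl1, Loxl2 and Loxl3, and most of the TGF-beta list lies to the right of 0.

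Markers of cells that can produce these proteins were in part lower on the same arrays. Of 11 markers of fibroblasts and fibro-adipogenic progenitors, 7 were downregulated DEGs (13.1% over all genes), and the median was -2.25. Without AR113Q 1, a setting chosen after seeing the data, 7 still had that call and the median was -1.82. Their summed linear signal overlapped, at 128500 to 156700 on the WT and 90840 to 137500 on the AR113Q arrays. Dcn, which encodes decorin, made up 40.4% to 43.1% of it on the WT and 68.2% to 77.6% on the AR113Q arrays. Without Dcn, a sum also chosen after seeing the data, it was 73210 to 92330 and 20320 to 43660, without overlap. Those that fell included Clec3b at -3.24, Pi16 at -2.98, Dpp4 at -2.32 and Cd34 at -1.88, whereas Pdgfra at -0.27 (adjusted p = 0.425), Ly6a at -0.26 (adjusted p = 0.476), Gsn at -0.43 (adjusted p = 0.276) and Dcn at 0.41 (adjusted p = 0.0692) did not pass. Col1a1, Col1a2, Lum and Dcn in this list are matrix genes themselves. Of 6 tenocyte markers 4 were downregulated DEGs (13.1% over all genes), with 2 without AR113Q 1 and 2 of the 3 on all 7 arrays. Angptl7 at 1.54 (adjusted p = 0.124) and Mkx at -0.005 (adjusted p = 0.995) did not pass. The sum of the 6 was 3954 to 9134 on the WT and 1651 to 5006 on the AR113Q arrays, with WT 3 the highest and AR113Q 1 the lowest. Angptl7 was the brightest of the 6 on all 3 AR113Q arrays, so that the overlap of the sums rests in part on a gene with a positive difference. Tnmd and Kera were well above background on 2 of 3 AR113Q arrays, and Scx, at -1.13, on all 3. WT 3 and AR113Q 1 are the arrays that stood apart for Comp, Chad and Thbs4. The part of either cell type in the decreases was not tested.

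The markers of other cell types are given beside the 13.1% of all genes that were downregulated and the 11.2% that were upregulated DEGs, and with 4 to 10 genes a list a count near those shares is no result about the cell type. Endothelial markers had a median of -0.02 over 8 genes with Cldn5, at 1.30, as the DEG (lost without AR113Q 2 or AR113Q 3, at 1.32 and 1.12), and summed to 13040 to 14570 on the WT and 14420 to 16480 on the AR113Q arrays. Pericyte and smooth muscle markers had a median of -0.53 with 2 of 10 as downregulated DEGs and sums of 32010 to 36180 and 32220 to 35600. Des, at 0.41 (adjusted p = 0.113 from limma), was the brightest of the 10 on all 7 arrays. The overlap of these sums thus rests in part on a gene with a positive difference. The median distance of the 10 from their WT means was -0.06 to 0.09 on the WT and -0.71 to -0.25 on the AR113Q arrays, without overlap. Adipocyte markers had 3 of 5 as downregulated DEGs (1 without AR113Q 1), with a median of -1.04 and sums of 31570 to 44630 and 28080 to 28380. Macrophage markers had 2 of 8 as downregulated and 1 as an upregulated DEG, a median of -0.39 (-0.385) and sums of 8795 to 15710 and 6918 to 10070. Schwann cell markers had 2 of 6 (0 without AR113Q 1, with 2 past the test), a median of -0.58 and sums of 2054 to 4634 and 1339 to 1851. Satellite cell markers had 2 of 4 tested, a median of -0.71 and sums of 1284 to 1831 and 1006 to 1446. Calcr among these was well above background on 0 AR113Q arrays and entered the test only through WT, and over the 3 on all 7 arrays 1 was a DEG and the median was -0.39 (-0.388). The part of these cells in the result was not tested either.

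**Figure D5:**
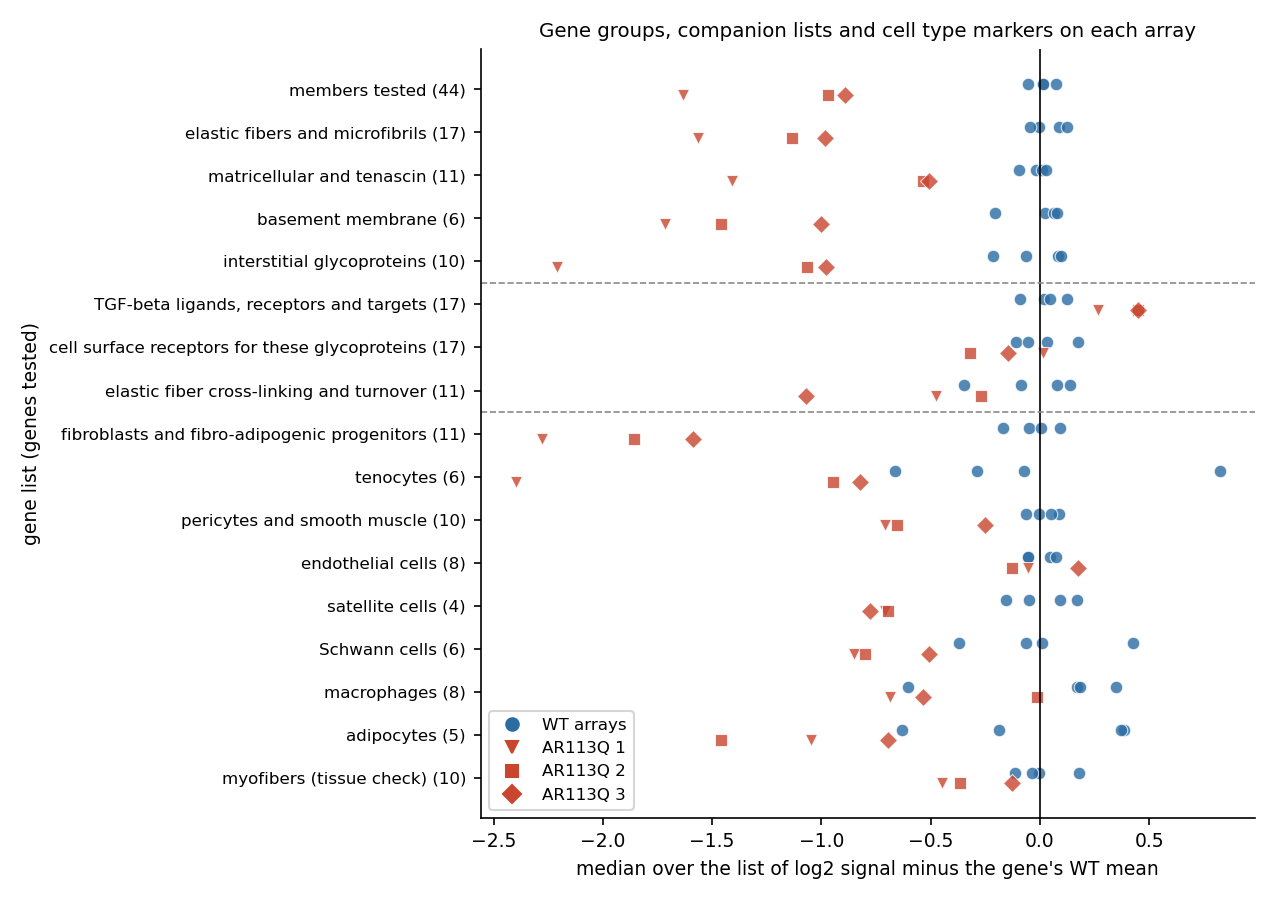
Each point is an array, at the median over a list (rows, with the number of genes tested) of log2 signal minus the gene's WT mean (x axis), with circles for WT and a symbol of its own for each AR113Q array, and the top row holds the 44 matrix genes. The matrix genes and the markers of fibroblasts, tenocytes, pericytes, satellite cells, Schwann cells, adipocytes and myofibers lie to the left of all WT arrays on all 3 AR113Q arrays, the TGF-beta list lies to the right, and the receptor, cross-linking, endothelial and macrophage lists overlap WT.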

How the data were processed

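The deposited scanner files hold Agilent spot intensity values, which the authors extracted with Feature Extraction 10.7.3.1 (submitters' processing notes), and the deposited table of the authors holds normalized log2 values, used only as an alternative. The processed signal was set on the log2 scale and quantile normalized across the 7 arrays after control spots and outlier spots were left out. Of 39429 probes, 20990 were kept, those that 3 or more arrays showed well above background, and the brightest kept probe stood for a gene. AR113Q was compared with WT by limma 3.58.1 in R 4.3.3 over 16577 genes, with Benjamini-Hochberg adjustment and thresholds of 0.05 for the adjusted p and 1 for the log2 fold change in either direction, and the code was tested on simulated data. Gene names were updated through RefSeq (GRCm38.p6), and probe positions are those of the scanner files (mm9). Values on every array were printed for the 4 genes of each role with the largest log2 fold change in either direction among those well above background on all 7 arrays, for upregulated DEGs, for genes whose kept probes fell on different sides of the thresholds, and for genes below background throughout a genotype. In each companion list the 3 largest changes were named. Further genes of those lists were named after their values were seen. The genes and lists were chosen with earlier results of these data known. Alternatives were the scaling, the background correction, the filter, the rule for probes, outlier spots, slide, a replicate block, the authors' values and leaving out each array. The knocked-in gene itself is not reported here.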

Additional observations from a re-analysis of the deposited data

Results flagged for a closer look

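For Vcan, WT 3 read 6.35 on the log2 scale while the other three WT arrays lay between 7.26 and 7.28, a gap to the nearest array that was 0.974 of the whole WT range. Gaps past a set cutoff were looked for among the WT arrays of 44 genes, and chance passes that cutoff in about 1 of 20 groups of 4. How often chance gives a gap as wide as that of Vcan was not computed.

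The Tnc probe left out of the test for low signal was well above background on 2 of 3 AR113Q arrays and on 0 of 4 WT arrays. Its mean log2 signal was 4.10 in AR113Q and 2.50 in WT mice, and the difference was not tested.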

How the results depend on the processing

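Of the 26 DEGs, all kept their direction in each of 18 alternative settings in which they were tested, and 10 (Fbn1, Fbln2, Fbln7, Efemp2, Emilin2, Mfap5, Hspg2, Vwa1, Cilp and Ccdc80) kept their call in every setting but slide as a fixed effect. That fit has 1 residual degree of freedom and rests on the slide 2 pair. It left 0 downregulated DEGs, 0 upregulated DEGs and 0 genes past the test (33 at an unadjusted p of 0.05 or lower), with a median of -1.66, as within slide 2. The authors' normalized values gave 14 downregulated and 0 upregulated DEGs and a median of -0.83, without the calls of Fbln1, Emilin1, Mfap2, Ltbp2, Thbs1, Thbs3, Nid2, Tinag, Matn2, Vcan and Ecm2. Over all genes those values gave 4.98% downregulated and 4.19% upregulated DEGs, beside 13.1% and 11.2% with the settings used here. The median was -0.89 after normexp background correction and -0.90 with the mean spot intensity, with 17 and 18 downregulated DEGs. Over all genes 5.69% and 6.21% were downregulated DEGs in these settings. Under normexp the calls of Fbln1, Emilin1, Mfap2, Ltbp2, Postn, Thbs1, Thbs3, Nid2 and Vcan were lost. The count of upregulated DEGs was 0 under these, without a filter on dim probes and with slide as a random block. Apart from the slide fit, the cause was not tested.

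Leaving out each array in turn gave 20 to 29 downregulated and 0 to 1 upregulated DEGs, 29 to 33 genes past the test, and medians from -1.39 to -0.91. Over all genes 11.6% to 14.4% were downregulated and 8.46% to 11.6% upregulated DEGs in these fits. Signs turned only for genes that had not passed. With each array left out in turn, Ltbp1 ranged from -0.21 to 0.029 (without AR113Q 1), Ltbp3 from -0.035 (without AR113Q 2, and below 0 also without WT 2 or WT 3) to 0.094, and Smoc1 from -0.017 (without WT 3) to 0.38. Ltbp3 was -0.037 after normexp correction, -0.039 with the mean spot intensity and -0.038 in the authors' values, and Mgp was -0.72 with slide as a fixed effect and within slide 2.

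The replicate numbers are not stated to pair the mice, and deviations of same-numbered arrays correlated at 0.04, -0.02 and 0.16. With a replicate block 21 genes were downregulated and 1 an upregulated DEG, 25 passed the test, and the median was -1.26. Over all genes 12.9% were downregulated and 11.2% upregulated DEGs under the block. Of the 26 DEGs 20 kept their call under the block, and Chad, which had not passed, did so at -2.05.

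Genes not well above background on an array have only a bound there, and the number of arrays limits the precision.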
